A study of Homo sapiens with 8 samples.

Results

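Of the genes with low counts in untreated HCT116 cells and large increases after doxorubicin, 6 were examined: SORCS2, PLA2G4D, CYP4F2, CYP4F3, INPP5D and RNF157-AS1. These 6 of the 60669 genes in the count tables were picked for the size of their rise with doxorubicin in these same libraries, so that rise is described below and not tested. All 6 passed the filter on low counts, which kept 17868 genes. HCT116 is a colon carcinoma line, and DPF2 belongs to BAF, a complex that remodels chromatin. RNA was sequenced from unedited HCT116 cells (WT) and from HCT116 cells carrying the DPF2 R350H change, introduced with CRISPR/Cas9, which by the series' account weakens contact of the complex with acetylated H3K56 on nucleosomes. Each genotype was sampled with no treatment and after 24 h in 0.5 µM doxorubicin, with 2 libraries in each of the 4 groups. Neither the number of edited clones nor the use of separate cultures for the 2 libraries of a group is in the labels. The p-values therefore reflect the spread between these samples alone, possibly a technical one. The R350H edit and other differences between the WT and R350H cells cannot be told apart.

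Doxorubicin is an anthracycline that traps topoisomerase II on DNA and leaves double-strand breaks, to which cells with intact p53, such as HCT116, respond with broad changes in transcription. The genes come from unrelated families. PLA2G4D is a cytosolic phospholipase A2, an enzyme class that frees fatty acids such as arachidonic acid from membrane lipids. CYP4F3 and CYP4F2 are cytochrome P450 enzymes that hydroxylate the omega end of fatty acids and of leukotriene B4. SORCS2 is a sorting receptor of the VPS10P family that binds proneurotrophins together with the neurotrophin receptor NGFR. INPP5D, also called SHIP1, removes the 5-phosphate of the lipid messenger made by PI3 kinases and is best known from blood cells. RNF157-AS1 is a long noncoding RNA transcribed from the opposite strand of RNF157.

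CYP4F2 and CYP4F3 lie in 1 cluster on chromosome 19, and their similarity bears on how well counts can be assigned to each. On hg38, CYP4F3 (ENSG00000186529.16) spans 15640897 to 15662825 on the plus strand and CYP4F2 (ENSG00000186115.13) spans 15878023 to 15898077 on the minus strand. Their coding sequences, of 1560 bases each, were identical at 1478 of 1558 aligned bases (94.9%) in GENCODE release 29. The longest run without a difference was 112 bases long and ended the coding sequence, at coding positions 1449 to 1560 in exon 13 of 13, at chr19:15878774-15878885 (minus strand) in CYP4F2 and chr19:15659271-15659382 (plus strand) in CYP4F3. Only coding sequence was searched for this run, so whether the identity continued past the coding end was not checked. A read wholly inside this run fits both genes equally well.
CYP4F2 and CYP4F3, shared run: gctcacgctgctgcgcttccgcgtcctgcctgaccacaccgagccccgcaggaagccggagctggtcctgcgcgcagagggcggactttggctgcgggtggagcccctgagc
The 60 coding bases in which the paralogs differ most, at coding positions 154 to 213 across the junction of exons 2 and 3, hold 11 differing bases, printed in capitals. They show where reads can be told apart.
CYP4F2: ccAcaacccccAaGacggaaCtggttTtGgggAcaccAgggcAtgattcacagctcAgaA
CYP4F3: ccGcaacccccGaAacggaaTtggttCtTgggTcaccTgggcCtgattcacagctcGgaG
Of all distinct 100-base windows of their transcripts, 93 were in both genes, which was 2.56% of the 3639 windows of CYP4F2 and 1.56% of the 5967 windows of CYP4F3. At 50 bases the shared windows numbered 406, or 11.9% of CYP4F2 and 7.09% of CYP4F3. With all other genes counted, 415 windows of CYP4F2 (12.1%) were found in 5 genes and 504 of CYP4F3 (8.8%) in 70 genes. Read lengths are not stated in the labels or file headers. The headers do record a minimum mapping quality of 10, a setting that can remove reads that map to several places. Whether it removed those of the shared stretches was not checked, so the values of both genes carry this uncertainty.

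Sharing was of another kind in RNF157-AS1. Of its 2571 distinct 100-base windows, 146 (5.68%) matched RNF157, on the opposite strand. These windows came from an earlier GENCODE release than the counts did. The exons counted for RNF157-AS1 cover 4398 bases. Counted sequence outside the windows was not checked, so the shared part of what was counted may differ from 5.68%. The libraries were made with a stranded kit, and the headers of the count files record a strand setting of 1 in untreated WT replicate 1 and untreated R350H replicate 2 and of 2 in the other 6 libraries. SORCS2, PLA2G4D and INPP5D shared 0 windows of 100 bases with any other gene. At 50 bases SORCS2 shared 0, PLA2G4D 2 with RNF180, and INPP5D 26 (0.295%) with 10 genes.

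Start-site sequence was available in the RefSeq promoter table (GRCh38.p14, 250 bases before to 50 after the start) for PLA2G4D, CYP4F2, CYP4F3 and INPP5D. Those of PLA2G4D (chr15:42094513-42094812, minus strand), CYP4F2 (chr19:15898025-15898324, minus strand) and CYP4F3 (chr19:15641062-15641361, plus strand) are printed because the first held the one motif match found and the other two belong to paralogs with close coding sequence. Capitals mark a match to TATAAA, read on the opposite strand.
PLA2G4D: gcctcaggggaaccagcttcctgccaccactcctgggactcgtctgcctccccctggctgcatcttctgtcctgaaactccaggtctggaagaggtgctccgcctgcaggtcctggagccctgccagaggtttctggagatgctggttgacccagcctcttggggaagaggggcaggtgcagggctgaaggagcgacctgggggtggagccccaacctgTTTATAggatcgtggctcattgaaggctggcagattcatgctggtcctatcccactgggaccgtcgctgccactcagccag
CYP4F2: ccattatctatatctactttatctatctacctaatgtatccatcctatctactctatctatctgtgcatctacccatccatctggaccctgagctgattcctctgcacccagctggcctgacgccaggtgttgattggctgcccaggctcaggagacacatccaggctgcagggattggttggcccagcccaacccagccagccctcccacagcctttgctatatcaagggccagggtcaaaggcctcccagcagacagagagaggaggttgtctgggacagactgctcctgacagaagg
CYP4F3: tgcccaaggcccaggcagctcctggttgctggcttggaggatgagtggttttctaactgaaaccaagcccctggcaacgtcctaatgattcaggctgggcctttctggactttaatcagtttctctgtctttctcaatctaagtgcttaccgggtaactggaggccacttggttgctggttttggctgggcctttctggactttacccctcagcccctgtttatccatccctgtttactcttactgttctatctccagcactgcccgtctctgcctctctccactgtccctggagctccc
The longest run common to the CYP4F2 and CYP4F3 windows was 9 bases, against 112 bases in the coding sequence. Both strands were searched for 3 motifs: TATAAA, the AP-1 motif TGACTCA and the 10-base consensus of a p53 half-site. The PLA2G4D match began 31 bases upstream of the start (-31), and no other match was found in the 4 windows. Among 35116 promoters of 300 bases, 11.5% held TATAAA, 4.95% held TGACTCA and 6.63% held the p53 half-site. The windows held few CpG pairs, 6 in PLA2G4D, 1 in CYP4F2, 3 in CYP4F3 and 12 in INPP5D, beside a median of 14 over all promoters. Their G and C content was 62.0%, 54.0%, 53% and 60.3% in the same order, beside a median of 58.7%.

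Total counts ran from 28111673 to 33727374 per library, and the correlation between the 2 libraries of a group across genes was 0.992 to 0.995. The edited gene DPF2 had 93.7 ± 1.44 counts per 1000000 (CPM, on library sizes scaled by TMM; SD, n = 2) in WT without drug and 107 ± 1.58 with it, and 56.5 ± 2.98 in R350H without drug and 53.9 ± 0.568 with it. These are transcript levels, which do not show a base change. Colon epithelium markers summed to 3330 to 3860 CPM in untreated and 4420 to 5220 CPM in treated libraries. Of the 9 of 12 tested, 6 rose and 3 fell in WT and 5 rose and 3 fell in R350H, among them the abundant KRT19, which rose (654 to 1510 CPM in WT), and CLDN7, which fell by 0.71 in WT and 1.22 in R350H.

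In untreated WT cells the 6 genes were in the lower part of the expressed range: between 12.8% (PLA2G4D) and 41.2% (CYP4F3) of tested genes had a lower CPM. After doxorubicin every one of them was higher in all treated libraries than in all untreated libraries of the same genotype. The WT increases ranged from 7.71-fold (CYP4F3) to 50.8-fold (SORCS2), and those in R350H from 2.5-fold (CYP4F3) to 11.9-fold (SORCS2). Over all tested genes, 24.1% were higher and 23.6% lower with doxorubicin in WT at an adjusted p under 0.05 (edgeR quasi-likelihood test, Benjamini-Hochberg), and 26.1% were higher and 21.8% lower in R350H. Because the genes were chosen on these contrasts, nothing is read from these shares about them. The genotype tests given below for each gene use the same libraries. Choice on a large WT rise favours high treated and low untreated WT values, so their adjusted p-values are not free of that choice. In bulk RNA, a change in the share of cells expressing a gene and a change in RNA per cell cannot be told apart.

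**Figure D1:**
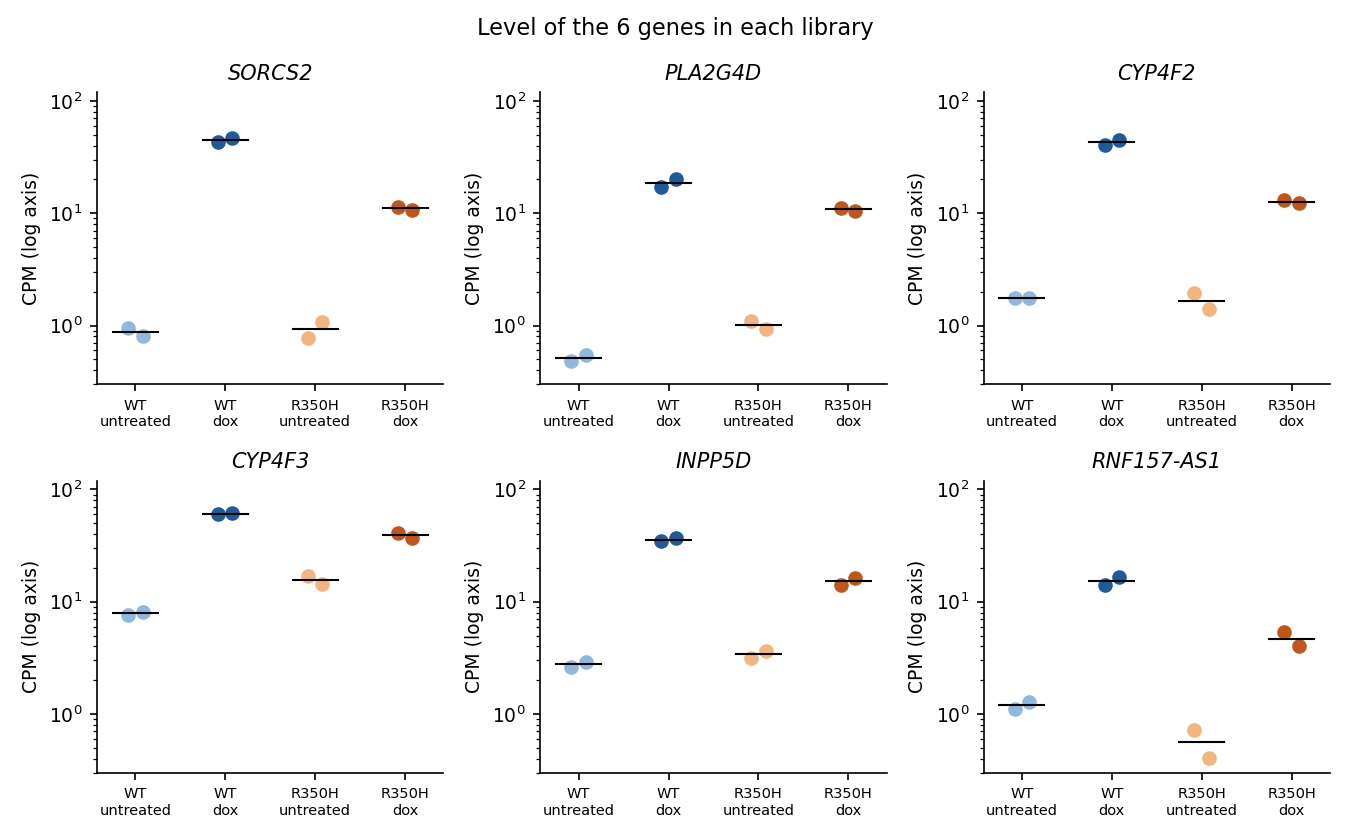
CPM (log axis) of each gene in the 8 libraries, by genotype and treatment; points are libraries and bars are group means. In all 6 panels the treated libraries lie above the untreated ones of the same genotype, and the treated R350H libraries lie below the treated WT libraries.

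PLA2G4D (ENSG00000159337.7, chromosome 15, 42067009 to 42094562, minus strand) was the lowest of the 6 genes in untreated WT, with 16 and 15 counts, or 0.480 and 0.549 CPM. Treated WT libraries had 17.2 and 20.0 CPM (485 and 609 counts). In R350H the values were 1.10 and 0.928 CPM untreated and 11.2 and 10.4 CPM treated. The log2 rise was 5.17 ± 0.19 (SE) in WT, 36.1-fold, and 3.41 ± 0.17 in R350H, 10.7-fold. R350H libraries thus lay above WT without drug and below WT with it, with no overlap in either case. The first difference was 0.98 ± 0.30 on the log2 scale (adjusted p = 0.0115, edgeR) and the second was -0.78 ± 0.12 (adjusted p = 5.42e-06). The untreated call rested on 15 to 35 counts per library and was lost when untreated WT replicate 1 (0.88, adjusted p = 0.0838) or untreated R350H replicate 1 (0.86, adjusted p = 0.0868) was left out, and without the 2 libraries of strand setting 1 (0.99, adjusted p = 0.0979). Over all its alternatives the adjusted p was 0.00924 to 0.0979.

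CYP4F3 had the highest untreated level, 7.67 and 8.13 CPM in WT (256 and 222 counts) and 17.0 and 14.3 CPM in R350H. Treated libraries had 60.5 and 61.3 CPM in WT and 41.2 and 37.2 CPM in R350H. The rise was 2.95 ± 0.10 in WT and 1.32 ± 0.09 in R350H on the log2 scale, the smallest of the 6 in each genotype. Untreated R350H libraries were above both untreated WT libraries by 0.99 ± 0.11 (adjusted p = 2.02e-08), and treated R350H libraries were below both treated WT libraries by a log2 change of -0.64 ± 0.08 (adjusted p = 4.06e-07).

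Its paralog CYP4F2 started lower, at 1.77 and 1.76 CPM in WT and 1.94 and 1.39 CPM in R350H, which overlapped. With doxorubicin it had 40.7 and 44.9 CPM in WT (1150 and 1368 counts) but 13.0 and 12.4 CPM in R350H (424 and 399 counts). The rise was 4.60 ± 0.13 in WT, 24.3-fold, and 2.93 ± 0.15 in R350H, 7.61-fold. Treated R350H libraries were below treated WT by a log2 change of -1.75 ± 0.10 (adjusted p = 7.18e-14), whereas without drug the difference was -0.08 ± 0.20 (adjusted p = 0.788). The count of CYP4F2 relative to that of CYP4F3 moved from 0.230 and 0.216 to 0.673 and 0.732 in WT, and from 0.114 and 0.0974 to 0.316 and 0.333 in R350H. CYP4F2 thus gained on CYP4F3 in both genotypes, with no overlap between treated and untreated libraries.

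Both are liver enzymes in textbook accounts, so hepatocyte markers were summed as well. The 10 markers together held 3.82 to 5.41 CPM in WT and 3.41 to 4.58 CPM in R350H over treated and untreated libraries, CYP3A4 had 0 counts throughout, and of the 5 tested 1 was higher and 2 were lower with doxorubicin in WT and 0 of either kind in R350H.

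SORCS2 (ENSG00000184985.16, chromosome 4, 7192538 to 7742836, plus strand) showed the largest increase in the counts, though not in the deposited TPM described below. It had 32 and 22 counts (0.959 and 0.805 CPM) in untreated WT and 1218 and 1419 counts (43.1 and 46.6 CPM) in treated WT. In R350H it had 25 and 35 counts (0.782 and 1.08 CPM) untreated and 372 and 346 counts (11.4 and 10.7 CPM) treated. Untreated libraries of the genotypes overlapped, and both treated R350H libraries were far below both treated WT libraries. The log2 rise was 5.65 ± 0.15 in WT and 3.56 ± 0.16 in R350H. Between genotypes the difference was 0.07 ± 0.26 without drug (adjusted p = 0.871) and -2.02 ± 0.10 with it (adjusted p = 3.19e-15), the most negative of the 6. Neuron markers, given because sortilin-family receptors are studied in neurons, moved the other way: the 12 summed to 172 to 191 CPM in untreated and 76.9 to 81.2 CPM in treated WT, and 194 to 199 against 82.9 to 83.6 CPM in R350H. Most of this sum was SYT1, with means of 119.7 and 55.6 CPM in WT and 98.3 and 42.7 CPM in R350H, and MAP2. The means of MAP2 were 53.8 and 19.8 CPM in WT and 75.2 and 23.0 CPM in R350H. The sum therefore says little about the markers that were not tested. Of the 5 tested, 4 fell in WT and 3 in R350H.

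INPP5D (ENSG00000168918.14, chromosome 2, 233059967 to 233207903, plus strand) had 2.64 and 2.89 CPM in untreated WT and 34.9 and 36.7 CPM in treated WT. R350H libraries had 3.16 and 3.65 CPM untreated and 14.0 and 16.3 CPM treated. The rise was 3.70 ± 0.13 in WT, 13.0-fold, and 2.15 ± 0.13 in R350H, 4.45-fold. Untreated R350H libraries lay above both WT libraries, yet the difference of 0.31 ± 0.16 did not pass the test (adjusted p = 0.143). Treated R350H libraries were lower by a log2 change of -1.24 ± 0.10 (adjusted p = 5.73e-11). Blood cell markers summed beside this to 47.8 to 52.0 CPM in untreated and 52.9 to 54.1 CPM in treated WT, 42.7 to 44.9 and 42.7 to 43.3 CPM in R350H. Of these 20 markers 5 were tested, 2 were higher with doxorubicin in each genotype, 1 was lower in R350H, and the B cell marker MS4A1 had 0 counts in all libraries. Most of the blood cell sum was VAV1, the marker lower in R350H, with group means of 43.8, 41.9, 34.5 and 29.05 CPM in the same order. The sum therefore says little about the other markers. Those that rose were ITGAM (log2 change 2.456 ± 0.274 for WT, 2.375 ± 0.277 for R350H) and CORO1A (1.165 ± 0.182 and 0.547 ± 0.195).

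RNF157-AS1 (ENSG00000267128.2, chromosome 17, 76138432 to 76154650, plus strand) overlaps RNF157 (ENSG00000141576.16, 76142465 to 76240493, minus strand). It had 37 and 35 counts (1.11 and 1.28 CPM) in untreated WT and 398 and 504 counts (14.1 and 16.5 CPM) in treated WT. In R350H the counts were 23 and 13 untreated (0.720 and 0.402 CPM) and 174 and 131 treated (5.33 and 4.06 CPM). R350H libraries were below WT libraries with and without drug. The rise was 3.68 ± 0.19 in WT, 12.8-fold, and 3.06 ± 0.25 in R350H, 8.37-fold. The genotype difference was -1.08 ± 0.32 without drug (adjusted p = 0.00869) and -1.70 ± 0.15 with it (adjusted p = 7.03e-10). The untreated call was lost without untreated WT replicate 2 (-0.98, adjusted p = 0.0581) or untreated R350H replicate 2 (-0.72, adjusted p = 0.158), and without the 2 libraries counted with strand setting 1 (-0.83, adjusted p = 0.176). Over all its alternatives the adjusted p was 0.00284 to 0.176.

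RNF157 itself, a ubiquitin ligase gene, had 33 and 30 counts in untreated and 33 and 26 in treated WT, and 55 and 41 against 68 and 56 in R350H. Neither doxorubicin difference passed the test, at -0.05 ± 0.31 (adjusted p = 0.914) in WT and 0.35 ± 0.26 (adjusted p = 0.274) in R350H. There were 1.12 and 1.17 antisense counts per RNF157 count in untreated WT and 12.1 and 19.4 in treated WT, against 0.418 and 0.317 and then 2.56 and 2.34 in R350H.

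Set side by side, the genotype comparison without drug divided the genes and the one with drug did not. Without drug, 2 of the 6 were higher in R350H (PLA2G4D and CYP4F3), 1 was lower (RNF157-AS1) and 3 did not pass the test, while 17.3% of all tested genes were higher and 19.5% lower. With doxorubicin 6 of 6 were lower and 0 higher, while 21% of all tested genes were lower and 19.1% higher. These tests use libraries that also served to pick the genes, and picking on a large rise in WT favours high values in treated WT and low values in untreated WT. Among 142 other tested genes with a WT rise at least as large as that of CYP4F3, 62 (43.7%) were lower and 10 higher in treated R350H, with a median log2 difference of -0.58, and 28 were higher and 0 lower in untreated R350H. A choice on the R350H rise gave 477 other genes at least as high as CYP4F3, of which 131 (27.5%) were lower and 71 higher in treated R350H, and 79 were lower and 77 higher in untreated R350H.

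The difference between the rises, R350H minus WT on the log2 scale, was -2.09 ± 0.28 for SORCS2, -1.76 ± 0.32 for PLA2G4D, -1.67 ± 0.23 for CYP4F2, -1.63 ± 0.13 for CYP4F3, -1.55 ± 0.19 for INPP5D and -0.62 ± 0.37 for RNF157-AS1. All 6 were below 0, and that of RNF157-AS1 was less than 2 SE from 0. Over all tested genes 6.46% had a higher and 8.18% a lower response in R350H at an adjusted p under 0.05. These differences are made of the rises that chose the genes and are given with no test. Of the 142 other genes chosen on the WT rise, 131 (92.3%) had a smaller rise in R350H than in WT, and of the 477 chosen on the R350H rise 266 (55.8%) did. Leaving out untreated R350H replicate 1 moved the RNF157-AS1 difference to -0.15 ± 0.51, and leaving out replicate 2 of that group moved it to -0.98 ± 0.42.

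**Figure D2:**
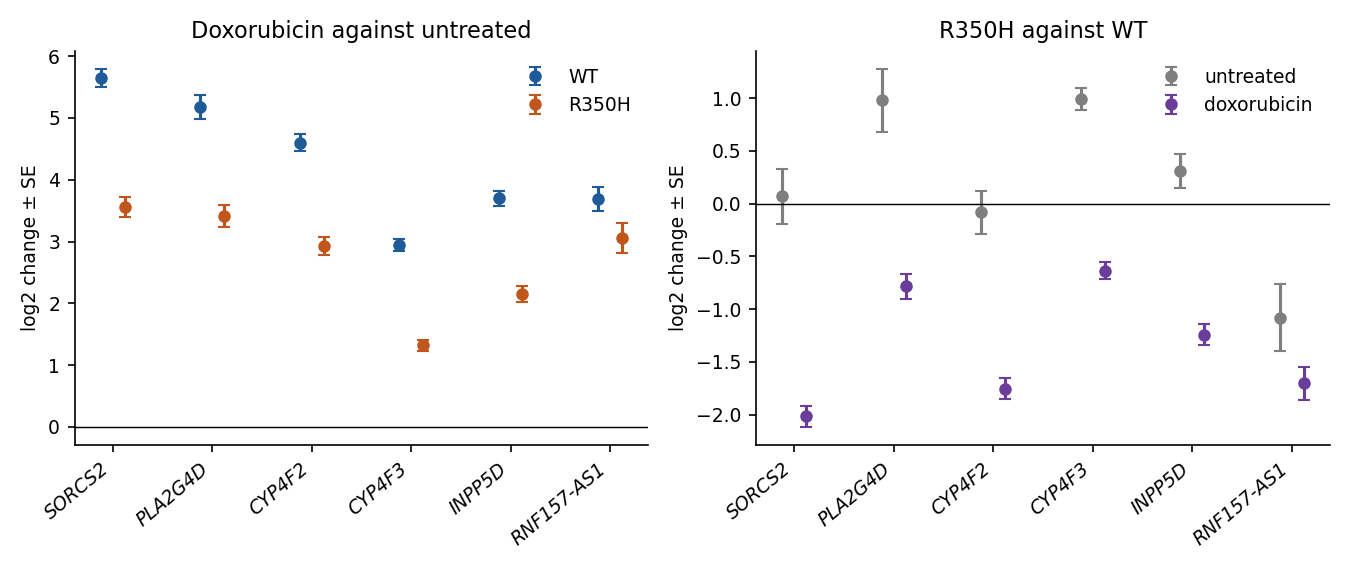
Log2 change ± SE of the 6 genes, with doxorubicin in each genotype (left) and in R350H relative to WT in each treatment (right). Every rise is smaller in R350H, and all 6 genes are below 0 in R350H against WT with doxorubicin while without it RNF157-AS1 alone passed the test below 0.

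Levels can be compared between genes only per length, for which TPM were computed from the counts and exon lengths. In untreated WT the order was CYP4F3 (4.29 TPM), CYP4F2 (1.71), INPP5D (0.955), RNF157-AS1 (0.814), SORCS2 (0.419) and PLA2G4D (0.2995), and no neighbours overlapped between libraries. In treated WT CYP4F2 (38.1 TPM) stood above CYP4F3 (30.4) and SORCS2 (19.6), followed by INPP5D (11.4), PLA2G4D (9.97) and RNF157-AS1 (9.62), whose neighbouring ranges overlapped. CYP4F3 led in R350H in both conditions, with 8.83 TPM untreated and 21.6 TPM treated, and CYP4F2 was next with 1.67 and 12.4 TPM. RNF157-AS1 was lowest in R350H, at 0.398 TPM untreated, where it overlapped SORCS2 (0.459), and 3.25 TPM treated, where it did not overlap its neighbour INPP5D (5.30). The order depends on the source: in the deposited TPM, which hold 5 of the genes, the treated WT means were 13.4 for CYP4F2, 9.93 for CYP4F3, 2.38 for PLA2G4D, 0.788 for INPP5D and 0.409 for SORCS2, which was the lowest there.

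By the size of the rise among all 17868 tested genes, SORCS2 ranked 19 in WT and 30 in R350H, and PLA2G4D ranked 33 and 31. CYP4F2 ranked 52 and 64, INPP5D 80 and 149, RNF157-AS1 82 and 55, and CYP4F3 148 and 483. No threshold defined the choice, and 127 genes had rises at least as large as those of CYP4F3 in both genotypes.

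A deposited TPM table of 202 genes held 5 of the 6, without RNF157-AS1. For CYP4F2 and CYP4F3 its fold changes were close to those from the counts: in WT, CYP4F2 was 26.4-fold higher in the deposited TPM and 22.3-fold in TPM from the counts, and CYP4F3 6.9-fold and 7.09-fold. For the others the deposited folds were smaller. INPP5D was 7.45-fold against 11.9-fold and PLA2G4D 15.5-fold against 33.3-fold in WT. SORCS2 had deposited values of 0.0829 and 0.0727 TPM untreated and 0.363 and 0.454 TPM treated in WT, a 5.25-fold rise where the counts gave 46.7-fold. Its R350H values were 0.0490 and 0.0336 TPM untreated and 0.135 and 0.124 TPM treated, 3.14-fold against 11.6-fold. By the deposited TPM the WT rise of SORCS2 was thus the smallest of the 5 genes and that of CYP4F2 the largest. In R350H only the deposited rise of CYP4F3 (2.34-fold) was smaller than that of SORCS2. In both genotypes SORCS2 had the most negative difference between deposited and count-based log2 change among the 202 genes, -3.15 in WT and -1.89 in R350H, while across genes the log2 changes correlated at r = 0.969 and 0.949. The labels and headers do not say how the deposited TPM were made, and the part this played was not tested. The direction of the change with doxorubicin and the order of the genotypes with drug were the same in both sources for the 5 genes. Without drug the order of the genotype means differed between sources for SORCS2 and CYP4F2. Untreated SORCS2 had 0.0778 TPM in WT and 0.0413 in R350H as deposited, and 0.419 and 0.459 from the counts. Untreated CYP4F2 had 0.507 and 0.578 TPM as deposited, and 1.71 and 1.67 from the counts.

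**Figure D3:**
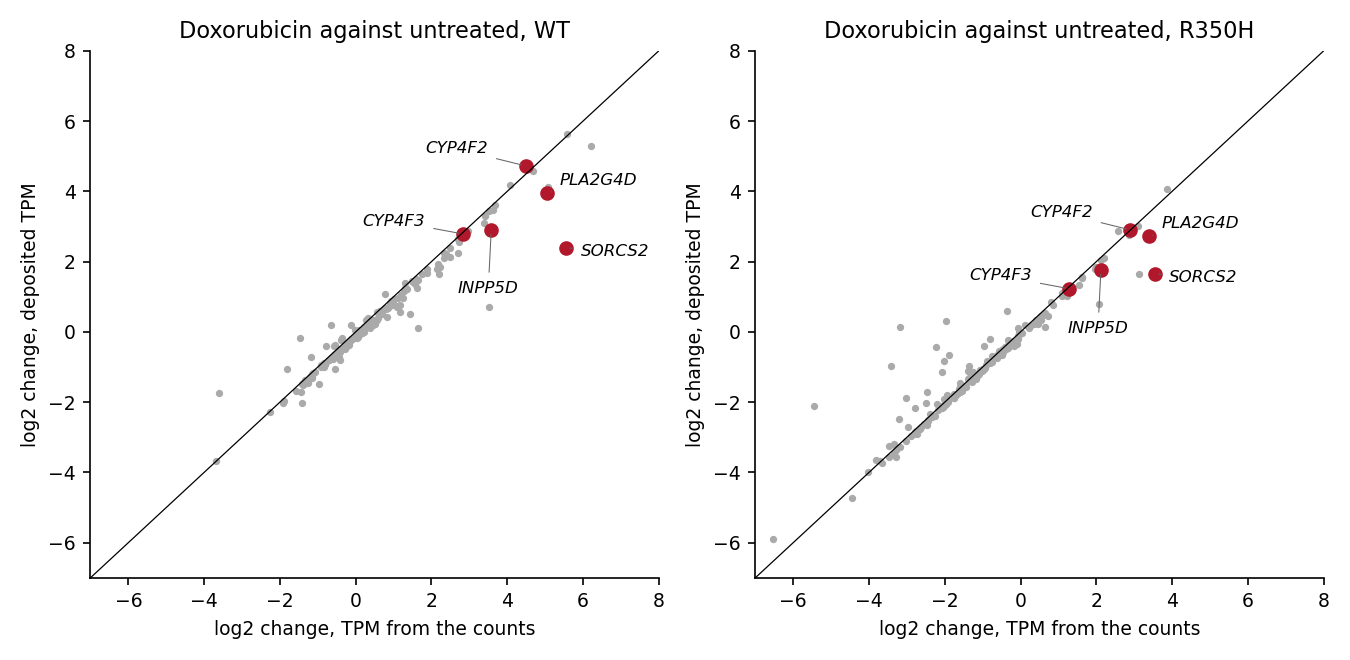
Log2 change with doxorubicin of the 202 genes of the deposited TPM table, in TPM computed from the counts (x) and in the deposited TPM (y), for WT and R350H; red points are the 5 genes named and the line marks equal values. SORCS2 lies 3.15 below the line in WT and 1.89 below it in R350H, while CYP4F2 and CYP4F3 lie near it.

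Genes around the 6 loci were not picked for their response and were tested. Of 43 tested genes with a symbol within 200 kb, 18 were higher and 8 lower with doxorubicin in WT, and 16 and 4 in R350H, with median log2 changes of 0.20 and 0.17 beside -0.03 and 0.03 over all tested genes. Of all tested genes 24.1% were higher and 23.6% lower in WT and 26.1% and 21.8% in R350H, shares against which the counts of neighbours and of the gene lists are to be read. Within 200 kb of CYP4F3, 5 of 9 neighbours rose in WT and 6 of 9 in R350H, and 0 fell. Within 200 kb of CYP4F2, with some of the same genes, 5 of 7 rose and 1 fell in WT and 4 rose and 1 fell in R350H. Near SORCS2 4 of 8 rose and 1 fell in WT, and 1 rose and 0 fell in R350H. Near PLA2G4D 3 of 6 rose and 2 fell in WT, and 2 rose and 1 fell in R350H. INPP5D had 0 of 5 rising and 2 falling neighbours in WT, and 0 and 1 in R350H, and RNF157-AS1 had 5 of 13 rising and 2 falling in WT, and 6 and 1 in R350H. The long noncoding RNA UCA1, between CYP4F3 and CYP4F2, had 78.6 CPM untreated and 335 CPM treated in WT, a rise of 2.09 ± 0.08, and 76.9 and 171 CPM in R350H, a rise of 1.16 ± 0.08; the response differed between genotypes by -0.93 ± 0.11 (adjusted p = 3.41e-07).

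Other members of the CYP4 family changed to different extents. CYP4F12 rose by 0.996 ± 0.135 in WT and 0.64 ± 0.11 in R350H, and CYP4F11 by 0.68 ± 0.07 and 0.19 ± 0.07. CYP4F11 lay lower in treated R350H (38.2 CPM) than in treated WT (80.6 CPM), while CYP4F12 lay higher (15.1 against 8.66 CPM). CYP4F8 rose by 3.01 ± 0.75 and 2.09 ± 0.52 but stayed under 1 CPM in all group means. CYP4F22, an epidermal enzyme of ceramide synthesis, passed the test in R350H (0.39 ± 0.14) and not in WT (0.11 ± 0.15), and the difference between these responses, 0.28 ± 0.20, did not pass (adjusted p = 0.396). CYP4V2, located outside the cluster, fell by 1.03 ± 0.10 in WT and 0.78 ± 0.09 in R350H. In all, 3 of the 5 CYP4 genes tested besides CYP4F2 and CYP4F3 rose and 1 fell in WT, and 4 rose and 1 fell in R350H, with medians of 0.68 and 0.39.

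**Figure D4:**
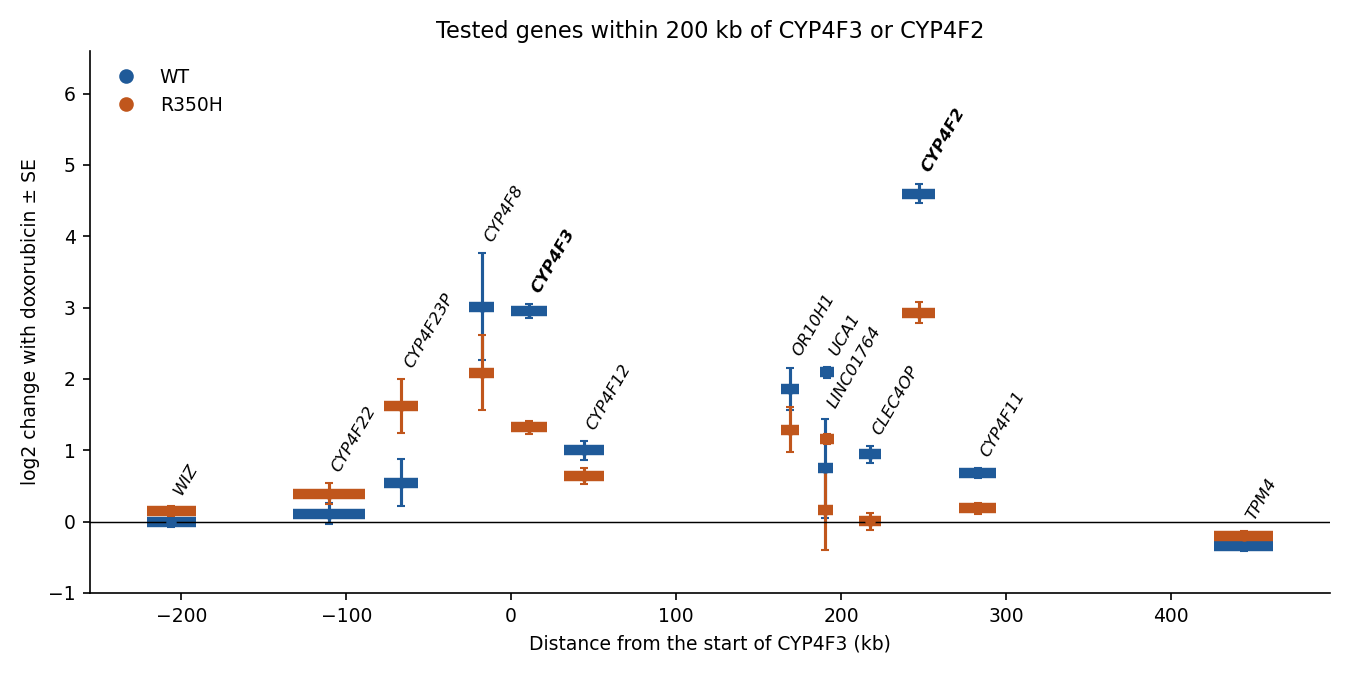
Log2 change with doxorubicin ± SE of tested genes within 200 kb of CYP4F3 or CYP4F2, by distance from the start of CYP4F3 in kb; horizontal bars span each gene and colours give the genotype. CYP4F2 in WT is the highest value at 4.60, and UCA1, at 2.09 in WT, lies between the paralogs.

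Single genes near the other loci changed as well. Close to SORCS2, AFAP1-AS1 rose from 0.178 to 1.44 CPM in WT (2.97 ± 0.46), with a change of 0.74 ± 0.71 in R350H that did not pass (adjusted p = 0.416), and the mitochondrial import gene GRPEL1 rose in both genotypes (0.65 ± 0.07 and 0.53 ± 0.07). PLA2G4F, a phospholipase beside PLA2G4D, rose from 0.1997 to 0.767 CPM in WT (1.93 ± 0.53) and had 0.0469 and 0.123 CPM in R350H, where the change of 1.33 ± 0.98 did not pass. Around INPP5D 2 neighbours fell in WT, NGEF (-0.73 ± 0.11) and DGKD (-0.37 ± 0.07). FOXJ1, a regulator of motile cilia, overlaps the span of RNF157-AS1 on the opposite strand. It rose by 1.09 ± 0.38 in WT and 1.20 ± 0.44 in R350H from under 1 CPM. Whether reads of RNF157-AS1 entered the counts of FOXJ1 was not tested. Of the 13 neighbours of RNF157-AS1, 5 rose and 2 fell in WT, and 6 rose and 1 fell in R350H. UBALD2 fell in both genotypes (-1.18 ± 0.075 in WT and -1.36 ± 0.075 in R350H), and QRICH2 fell in WT (-0.86 ± 0.165).

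Phospholipase A2 genes besides PLA2G4D gave 3 rises and 0 falls among 9 tested in WT, and 3 and 2 in R350H, with medians of 0.10 and 0.23. PLA2G4A, the most studied cytosolic phospholipase A2, rose by 0.58 ± 0.11 in WT, to 14.5 from 9.73 CPM, and by 0.41 ± 0.10 in R350H, to 16.8 from 12.6 CPM. PLA2G7, which inactivates platelet-activating factor, rose by 0.66 ± 0.16 and 0.88 ± 0.18. Squamous epithelium markers, given because PLA2G4D is known from keratinocytes, summed to 16 to 17.8 CPM in untreated and 18.4 to 18.6 CPM in treated WT, 21.0 to 21.4 and 15.8 to 16.8 CPM in R350H, and KRT1 and TGM3 had 0 counts. Most of this sum was KRT10, with means of 13.7, 15.95, 17.9 and 12.6 CPM in the same order. Of the 3 tested, 1 rose in WT, DSG3 (0.0333 to 0.391 CPM), and 1 fell in R350H, KRT10. The part of cell types marked by these 4 lists in the results was not tested.

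Among 25 tested eicosanoid enzymes and receptors, 9 rose and 3 fell in WT and 10 rose and 4 fell in R350H, with medians of 0.38 and 0.35. ALOX5, the lipoxygenase that starts leukotriene synthesis, rose by 2.76 ± 0.14 in WT, to 21.9 from 3.26 CPM, and by 2.36 ± 0.17 in R350H, to 8.07 from 1.57 CPM. PTGES, a prostaglandin E synthase, rose by 0.89 ± 0.08 and 1.23 ± 0.09, and the epidermal lipoxygenase ALOX12B by 1.05 ± 0.21 and 0.79 ± 0.22. PTGER4, a prostaglandin E receptor, fell by 0.79 ± 0.21 in WT and 0.96 ± 0.13 in R350H.

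Of 6 tested sortilin-family and neurotrophin genes, 2 rose and 0 fell in WT, and 2 rose and 1 fell in R350H. NGFR, a coreceptor of SORCS2, rose from 24.8 to 53.9 CPM in WT (1.12 ± 0.08) but had 51.6 and 50.7 CPM in R350H (-0.02 ± 0.07), and the responses differed by -1.15 ± 0.11 (adjusted p = 7.43e-09). The neurotrophin BDNF rose in both genotypes, by 0.96 ± 0.07 and 1.002 ± 0.064, from 29.3 CPM in WT and 104 CPM in R350H. SORT1 fell in R350H (-0.49 ± 0.07) and had a change of -0.11 ± 0.07 in WT. The paralogs SORCS1 and SORCS3 had 0 to 1 counts in any library and were not tested.

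Of 25 tested phosphoinositide phosphatases and PI3 kinase genes besides INPP5D, 7 rose and 5 fell in WT and 9 rose and 4 fell in R350H, with medians of 0.05 and 0.07. The WT counts are near the shares over all tested genes, 24.1% higher and 23.6% lower. INPPL1, the widely expressed SHIP paralog, had 132 and 144 CPM in WT (0.12 ± 0.07, adjusted p = 0.138) and rose by 0.30 ± 0.07 in R350H. The PI3 kinase inhibitor PIK3IP1 rose by 1.19 ± 0.19 and 1.52 ± 0.20, the leukocyte kinase subunit PIK3CD by 0.80 ± 0.10 and 0.89 ± 0.10, and INPP4A, which acts on the product of INPP5D, by 0.69 ± 0.07 and 0.58 ± 0.07. INPP5A fell by 0.69 ± 0.10 in WT and 0.35 ± 0.10 in R350H.

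The genes most like each of the 6 were sought in a pool of 13442 named genes averaging 1 CPM or more, by the root mean square distance between log2 profiles centred on the gene mean, over 8 libraries. CYP4F3 had the nearest match, PLK2 (0.138), a kinase gene known as a p53 target, then PGF (0.164) and COL17A1 (0.199). PLA2G4D was closest to AKR1B10 (0.176), LCE1F (0.238) and SYT8 (0.249). INPP5D was closest to KLHDC7A (0.20), KLHL30 (0.234) and PRODH (0.250). CYP4F2 was closest to ICAM1 (0.319), GGT6 (0.346) and H19 (0.354). SORCS2 had CYP4F2 (0.466), CPXM1 (0.533) and ICAM1 (0.548) as nearest genes, and RNF157-AS1 had CYP4F2 (0.416), ALOX5 (0.416) and ICAM1 (0.437). The distance is a description over libraries that also served to pick the 6 genes.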

How the data were processed

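Per the labels' protocols, TRIzol RNA went into libraries of a stranded TruSeq mRNA kit. The authors deposited whole-number counts per gene and library. Per the file headers, featureCounts 2.0.1 used GENCODE release 34 exons and reads with a mapping quality of 10 or more, with strand setting 1 in 2 libraries and 2 in 6. The submitters' processing notes name hg38, DESeq2 1.36.0, STAR 2.7.5a, Trim Galore 0.6.10, FastQC 0.11.4 and featureCounts 1.5.0-p1, which is not the version in the headers. A deposited table gives TPM for 202 genes, made in a way not stated in the labels or headers.

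Gene symbols came from a gene name table, which matched 42013 of 60669 genes. Genes were filtered with filterByExpr over the 4 groups (17868 kept, with 99.9% of the counts). Counts were scaled by TMM and fitted in R 4.3.3 with edgeR 4.0.16 (quasi-likelihood with robust option, 1 mean per group over 8 libraries, 4 residual degrees of freedom, two-sided, Benjamini-Hochberg over all genes tested, threshold 0.05, coefficient of variation 5.35%), a procedure tested on simulated data. Log2 changes are given ± SE of that fit. The libraries of a group differed by more than sampling noise (chi-square per gene 1.96 to 8.15), so none was a copy of another. Member counts ran from 13 (counting error 27.7%) to 1870 (2.31%). Window matches used GENCODE release 29 transcripts, on either strand.

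The 6 genes and the gene lists were chosen with earlier results of these data known. Named genes are the 6, DPF2, up to 4 genes per list with the largest changes past the test, close paralogs, genes within 200 kb and the 3 nearest profiles (log2 of CPM + 0.1). The result of 1 gene that met this rule is not reported here. Alternatives were DESeq2 1.42.0 size factors and Wald test, no low-count filter, a replicate block, only the groups compared, each library left out, the 2 libraries of strand setting 1 left out, a 500 kb window and Pearson r.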

Additional observations from a re-analysis of the deposited data

Results flagged for a closer look

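For 12 of 83 named genes besides the 6, the doxorubicin response differed between R350H and WT by the interaction term of the edgeR fit (adjusted p over all genes tested), 4 with a higher and 8 with a lower response in R350H. Over all tested genes 6.46% had a higher and 8.18% a lower response, so the number found is near the general share. Values are R350H minus WT on the log2 scale. The most negative was NGFR at -1.15 (adjusted p = 7.43e-09), with a rise in WT and a change of -0.02 in R350H. Of the genes beside CYP4F2, 3 had lower responses in R350H: UCA1 at -0.93 (adjusted p = 3.41e-07), the pseudogene CLEC4OP at -0.94 (adjusted p = 0.000285) and CYP4F11 at -0.49 (adjusted p = 0.00108). Lower responses were also found for the keratin KRT10 at -0.72, the claudin CLDN7 at -0.51, SORT1 at -0.37 and AFAP1, near SORCS2, at -0.33. Higher responses were those of QRICH2 at 0.97 and EVPL at 0.56, both near RNF157-AS1, TADA2B near SORCS2 at 0.39 and VPS39 near PLA2G4D at 0.30.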

How the results depend on the processing

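All 6 genes kept their direction and call in R350H against WT with doxorubicin, and their rises kept their direction, under every alternative fitted. Without drug the comparison was less stable. SORCS2, at 0.07, became -0.0396 without untreated WT replicate 2, -0.18 without untreated R350H replicate 2 and -0.0418 without the libraries of strand setting 1; CYP4F2, at -0.08, became 0.14 without untreated R350H replicate 2 and 0.14 without the strand setting 1 libraries. None of these passed the test. Without those libraries PLA2G4D (0.99, adjusted p = 0.0979) and RNF157-AS1 (-0.83, adjusted p = 0.176) no longer passed. Leaving out 1 library at a time gave -0.18 to 0.28 for SORCS2, 0.86 to 1.09 for PLA2G4D, -0.34 to 0.14 for CYP4F2 and -1.55 to -0.72 for RNF157-AS1. A group left with 1 library is assumed to vary like the others. CYP4F3 kept its call and INPP5D did not pass under any alternative.

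Counts of genes called moved by over 1.5 times in these cases. Genes higher in untreated R350H numbered 3084, and 1935 without the strand setting 1 libraries. Genes higher in treated R350H numbered 3421, and 1987 to 3627 with 1 library left out, the low values being without treated R350H replicate 1 (1987) or 2 (2127). Genes with a higher response in R350H numbered 1155, but 608 with the DESeq2 Wald test, 678 without the strand setting 1 libraries and 407 to 1191 with 1 library left out, with 580 and 621 without untreated R350H replicate 1 or 2 and 438 and 407 without treated R350H replicate 1 or 2. The cause was not tested beyond the smaller number of libraries.

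Replicate numbers did not pair the samples: deviations from group means correlated at -0.08 to 0.04. With a replicate block, no call of the 6 genes changed; PLA2G4D was 0.98 and RNF157-AS1 -1.08 without drug, and SORCS2 -2.02 with it. A window of 500 kb held 93 genes, 36 higher and 16 lower in WT and 40 and 13 in R350H. By Pearson r, 0 to 2 of the 3 nearest genes of each member were the same. Depth limits the untreated values most, since they rest on 13 to 544 counts per library.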
